A study of Homo sapiens with 45 samples.

Results

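The caveolin and cavin genes were followed as 6 named genes, CAV1, CAV2, CAVIN1, CAVIN2, CAVIN3 and EHD2, out of 41582 genes in the tables. They were chosen by name, and the values of all transcripts of a symbol were summed. The study sequenced polyadenylated RNA of human sarcoma cell lines and asked what the fusion protein EWS::FLI1 and the potassium channel gene KCNN1 do in Ewing sarcoma. Its 45 libraries came from 7 Ewing sarcoma lines (TC71, SKES1, RDES, MHHES1, A673, EW24 and EW3) and 6 osteosarcoma lines (U2OS, SAOS2, MG63, HOS-MNNG, KHOS and G292), each with 3 libraries, and from A673 cells carrying sh908. That construct is a short hairpin RNA against KCNN1 that doxycycline switches on; 3 of its libraries had no doxycycline and 3 had doxycycline. The parental lines carry no stated construct or treatment, and the labels used here give no doxycycline dose or time and do not say whether the sh908 cells are 1 clone. HOS-MNNG and KHOS are both derivatives of the HOS line, so the 6 osteosarcoma lines are not fully independent. EW3 had RNA of ERG and little of FLI1, where the other Ewing sarcoma lines had FLI1. The labels do not say whether the 3 libraries of a line came from separate cultures, so the spread between them may be technical.

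Caveolae are small flask-shaped pits of the plasma membrane, known for buffering membrane tension and for holding signalling proteins. Caveolins (CAV1 and CAV2 outside muscle, CAV3 in muscle) are hairpin membrane proteins that form the scaffold of the pit. Cavins are soluble proteins that coat it from the cytosol, and CAVIN1 is required for pits to form in cells that have CAV1. EHD2 is a membrane-bound ATPase that sits at the neck of the pit and holds it at the surface.

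CAV1 and CAV2 lie side by side on the plus strand of chromosome 7 (GRCh38.p14, CAV2 at chr7:116499738-116508541 and CAV1 at chr7:116525009-116561185), with 16467 bases between them. The other members lie apart, CAVIN1 at chr17:42402449-42423256 and CAVIN3 at chr11:6318946-6320501 on the minus strand, CAVIN2 at chr2:191834310-191847088 on the minus strand and EHD2 at chr19:47713422-47743134 on the plus strand. The starts of 4 members (CAV1, CAV2, CAVIN2 and EHD2) were matched in the RefSeq promoter table of GRCh38.p14, each as a window of 250 bases before and 50 bases after a start. CAVIN1 and CAVIN3 had no entry there, so no window of theirs was searched. CAV1 has 3 starts in that table, the first 2 of them 27 bases apart. The windows at the second of these (the upstream CAV1 start), the downstream CAV1 start, the upstream CAV2 start and CAVIN2 are shown. CAV1 transcripts from the upstream and downstream starts differed in their levels between lines. CAV2, the neighbour of CAV1, went largely with CAV1 over the lines, and CAVIN2 had another pattern. Capitals mark a start codon (ATG), the letters GGAAGGAA on the opposite strand (printed as TTCCTTCC), or GGAATG.
CAV1, upstream start, chr7:116524786-116525085, plus strand: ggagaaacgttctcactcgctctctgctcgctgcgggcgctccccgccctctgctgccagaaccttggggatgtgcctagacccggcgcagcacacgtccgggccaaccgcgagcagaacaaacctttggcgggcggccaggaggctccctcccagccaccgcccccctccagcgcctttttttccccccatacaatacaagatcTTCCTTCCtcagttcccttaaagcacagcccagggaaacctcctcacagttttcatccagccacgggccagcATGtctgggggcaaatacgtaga
CAV1, downstream start, chr7:116526112-116526411, plus strand: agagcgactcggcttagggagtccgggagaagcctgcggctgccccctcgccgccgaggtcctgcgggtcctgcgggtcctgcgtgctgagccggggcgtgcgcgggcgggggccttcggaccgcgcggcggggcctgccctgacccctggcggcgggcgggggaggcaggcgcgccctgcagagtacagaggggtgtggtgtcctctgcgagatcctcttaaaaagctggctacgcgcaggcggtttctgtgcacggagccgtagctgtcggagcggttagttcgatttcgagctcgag
CAV2, upstream start, chr7:116499488-116499787, plus strand: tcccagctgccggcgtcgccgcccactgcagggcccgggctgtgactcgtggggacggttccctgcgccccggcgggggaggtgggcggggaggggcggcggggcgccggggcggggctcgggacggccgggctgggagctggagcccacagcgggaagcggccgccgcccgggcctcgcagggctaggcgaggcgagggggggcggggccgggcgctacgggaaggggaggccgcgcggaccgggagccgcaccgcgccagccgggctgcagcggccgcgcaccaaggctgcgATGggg
CAVIN2, chr2:191847039-191847338, minus strand: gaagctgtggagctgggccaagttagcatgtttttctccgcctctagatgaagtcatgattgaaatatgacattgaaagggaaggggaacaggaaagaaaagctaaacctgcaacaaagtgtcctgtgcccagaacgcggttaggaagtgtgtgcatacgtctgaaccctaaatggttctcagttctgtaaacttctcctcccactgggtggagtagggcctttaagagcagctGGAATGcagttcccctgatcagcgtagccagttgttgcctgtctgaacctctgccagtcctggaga

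The upstream CAV1 window held GGAAGGAA, a pair of the GGAA units that EWS::FLI1 is known to bind in longer runs, once on the opposite strand, 45 to 38 bases before the start. Among all 34943 windows of the table, 3.68% held these letters on either strand. CAVIN2 had GGAATG, the letters of a TEAD site, once, 16 to 11 bases before its start, as had 14% of all windows. The GC box GGGCGG was found 6 times in the upstream CAV2 window, 3 times in the upstream and 2 times in the downstream CAV1 window, once in the EHD2 window and not in the CAVIN2 window, against 44.9% of all windows with at least 1. TATAAA and CCAAT were in no window of CAV1, CAV2, CAVIN2 or EHD2 and in 11.6% and 34.6% of all windows. These are matches of letters on both strands, and no binding was measured.

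The labels were set against markers. PRKCB, an Ewing sarcoma marker, was at 55.3 to 233 TPM in the Ewing sarcoma lines and under 1 TPM in every osteosarcoma line. NKX2-2 and STEAP1 were also higher in every Ewing sarcoma line than in any osteosarcoma line, but NR0B1, CD99, FLI1 and ERG overlapped. NR0B1 was at 0.651 TPM in MHHES1 and 2.45 in U2OS. CD99 was at 944 TPM in MG63 and 290 in EW24. FLI1 was at 20.2 TPM in HOS-MNNG and 27.7 in KHOS. EW3 had ERG at 34.8 TPM and FLI1 at 2.08, where the other Ewing sarcoma lines had FLI1 at 28.7 to 44.6 TPM. In those lines ERG was at most 0.0176 TPM. SP7, an osteoblast factor, did not separate the types: it was at 22.1 TPM in SAOS2 and under 1 TPM in the other 12 lines. TPM is a level per transcript length, scaled to the same total in each library. The summed levels of 7 Ewing sarcoma markers were 737 to 2060 TPM in Ewing sarcoma and 145 to 976 TPM in osteosarcoma, and those of 7 osteosarcoma markers 9.51 to 295 and 99.3 to 4267 TPM, so the sums overlapped. Of the cell types that are rich in caveolae, adipocytes had their 4 markers at a sum of at most 0.478 TPM in the Ewing sarcoma lines and 20.1 TPM in the osteosarcoma lines. The 4 fibroblast markers summed to 0.718 to 26.3 TPM in Ewing sarcoma and 10.5 to 1548 TPM in osteosarcoma, the 4 smooth muscle markers to 2.33 to 45.1 and 0.443 to 261 TPM, and the 6 endothelial markers to 0.873 to 13.7 and 1.06 to 8.17 TPM. The highest osteosarcoma sums rested mostly on single genes. FABP4 made up most of the adipocyte sum in HOS-MNNG, and ADIPOQ, PLIN1 and LEP were under 1 TPM in every osteosarcoma line. CNN1 made up most of the smooth muscle sum in SAOS2, where MYH11, DES and ACTG2 were under 1 TPM. LUM, at 1358 TPM, made up most of the fibroblast sum in G292, where PDGFRA was at 137 TPM. In Ewing sarcoma, ACTG2 made up most of the highest smooth muscle sum, in EW3. The part of these cell types in the results was not tested.

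CAV1, the main scaffold protein of caveolae, was abundant in all 13 lines and higher in Ewing sarcoma. The line means of the Ewing sarcoma lines were 588 TPM in TC71, 643 in EW24, 1211 in RDES, 1496 in SKES1, 1768 in A673, 2341 in MHHES1 and 3159 in EW3 (each n = 3). Those of the osteosarcoma lines were 240 TPM in HOS-MNNG, 289 in KHOS, 303 in SAOS2, 386 in U2OS, 686 in G292 and 696 in MG63. Thus 5 of the 7 Ewing sarcoma lines lay above every osteosarcoma line, while EW24 and TC71 lay among them, below MG63 and G292. In the ranked list of lines, 7 of the 12 neighbouring pairs had overlapping libraries, among them EW3 and MHHES1, and MG63, G292, EW24 and TC71. The spread between libraries was widest in EW3, with 2410, 2702 and 4363 TPM.

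CAV2, which forms mixed complexes with CAV1, was lower than CAV1 in every line and, like it, higher in most Ewing sarcoma lines. It ranged from 68.3 ± 22.7 TPM (SD, n = 3) in EW24 to 204 ± 24.3 TPM (SD, n = 3) in MHHES1 among the Ewing sarcoma lines, and from 22.1 ± 2.86 TPM (SD, n = 3) in U2OS to 71.5 ± 4.54 TPM (SD, n = 3) in SAOS2 among the osteosarcoma lines. By their means, 6 Ewing sarcoma lines lay above every osteosarcoma line, and the exception was EW24, between SAOS2 and G292. The libraries of 10 of the 12 neighbouring pairs overlapped. SAOS2 stood out by its balance between the caveolins: it had 4.23 times as much CAV1 as CAV2 on the TPM scale, the lowest ratio of the 13 lines, against 7.37 to 17.5 in the other osteosarcoma lines and 7.4 to 19.9 in the Ewing sarcoma lines.

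CAVIN1, the coat protein required for pit formation, had the opposite order, and the tumour types did not overlap. The osteosarcoma lines held 121 TPM in KHOS, 148 in HOS-MNNG, 166 in SAOS2, 207 in G292, 462 in MG63 and 560 in U2OS (each n = 3). Among the Ewing sarcoma lines, A673 and MHHES1 had 36.3 ± 4.60 and 36.2 ± 7.32 TPM (SD, n = 3 each), RDES had 9.16 and TC71 6.82, and EW24, EW3 and SKES1 had 3.97, 1.49 and 1.24 TPM. The lowest osteosarcoma library, at 114 TPM in KHOS, was above the highest Ewing sarcoma library, at 41.5 TPM in MHHES1. CAVIN1 also varied more among the Ewing sarcoma lines than CAV1 did, with the highest line 29.4 times the lowest against 5.37 times for CAV1. In RNA of a whole culture, fewer cells that express a gene and less of its RNA per cell cannot be told apart.

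CAVIN2, a cavin that is needed for caveolae in only some tissues, was at 1 TPM or more in 3 of 13 lines. MG63 had 47.3 ± 2.89 TPM, U2OS 24.5 ± 1.89 TPM and MHHES1 9.34 ± 1.86 TPM (SD, n = 3 each), and their libraries did not overlap. The next line, RDES, had 0.436 ± 0.0786 TPM (SD, n = 3), and KHOS and SAOS2 were listed at 0 in all 3 libraries. At 1 TPM or more the pattern did not follow the tumour type: these 3 lines included 2 osteosarcoma lines and 1 Ewing sarcoma line. Below that level, A673, EW3 and RDES had 52, 54 and 68 counts over their 3 libraries, and EW24, SKES1 and TC71 had 11, 6 and 5. G292, HOS-MNNG, KHOS and SAOS2 had 8, 4, 0 and 0.

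CAVIN3, a cavin that binds protein kinase C delta, was present in 5 osteosarcoma lines and near 0 in all others. It stood at 70.6 ± 8.01 TPM in KHOS, 61.2 ± 8.06 in MG63, 49.4 ± 9.46 in G292, 25.4 ± 4.05 in HOS-MNNG and 10.8 ± 0.347 in SAOS2 (SD, n = 3 each). U2OS, the line with the highest CAVIN1, had no CAVIN3 count among 82071758 counts in its 3 libraries. A count of 0 allows up to 3 counts over those libraries, or 0.0366 CPM (counts scaled to library size), by counting error alone, and SAOS2 was at least 122-fold higher than that limit. The 21 Ewing sarcoma libraries together had 14.6 estimated CAVIN3 counts among 660370977, or 0.0220 CPM, against 20.6 CPM in the 15 libraries of the 5 osteosarcoma lines that had it.

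EHD2, the ATPase of the caveolar neck, was at 22.8 TPM in KHOS, 29.4 in HOS-MNNG, 37.8 in U2OS, 89.7 in SAOS2, 107 in G292 and 229 in MG63 (each n = 3). A673 stood apart from the other Ewing sarcoma lines with 32.5 ± 0.674 TPM (SD, n = 3), a level whose libraries overlapped with those of U2OS and HOS-MNNG. The other 6 Ewing sarcoma lines had between 0.106 TPM in EW3 and 3.48 TPM in TC71 and lay below every osteosarcoma line. A673 thus combined CAV1, CAVIN1 and EHD2 at over 30 TPM each, which no other Ewing sarcoma line did: MHHES1 had as much CAVIN1 but 3.28 TPM of EHD2.

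**Figure D1:**
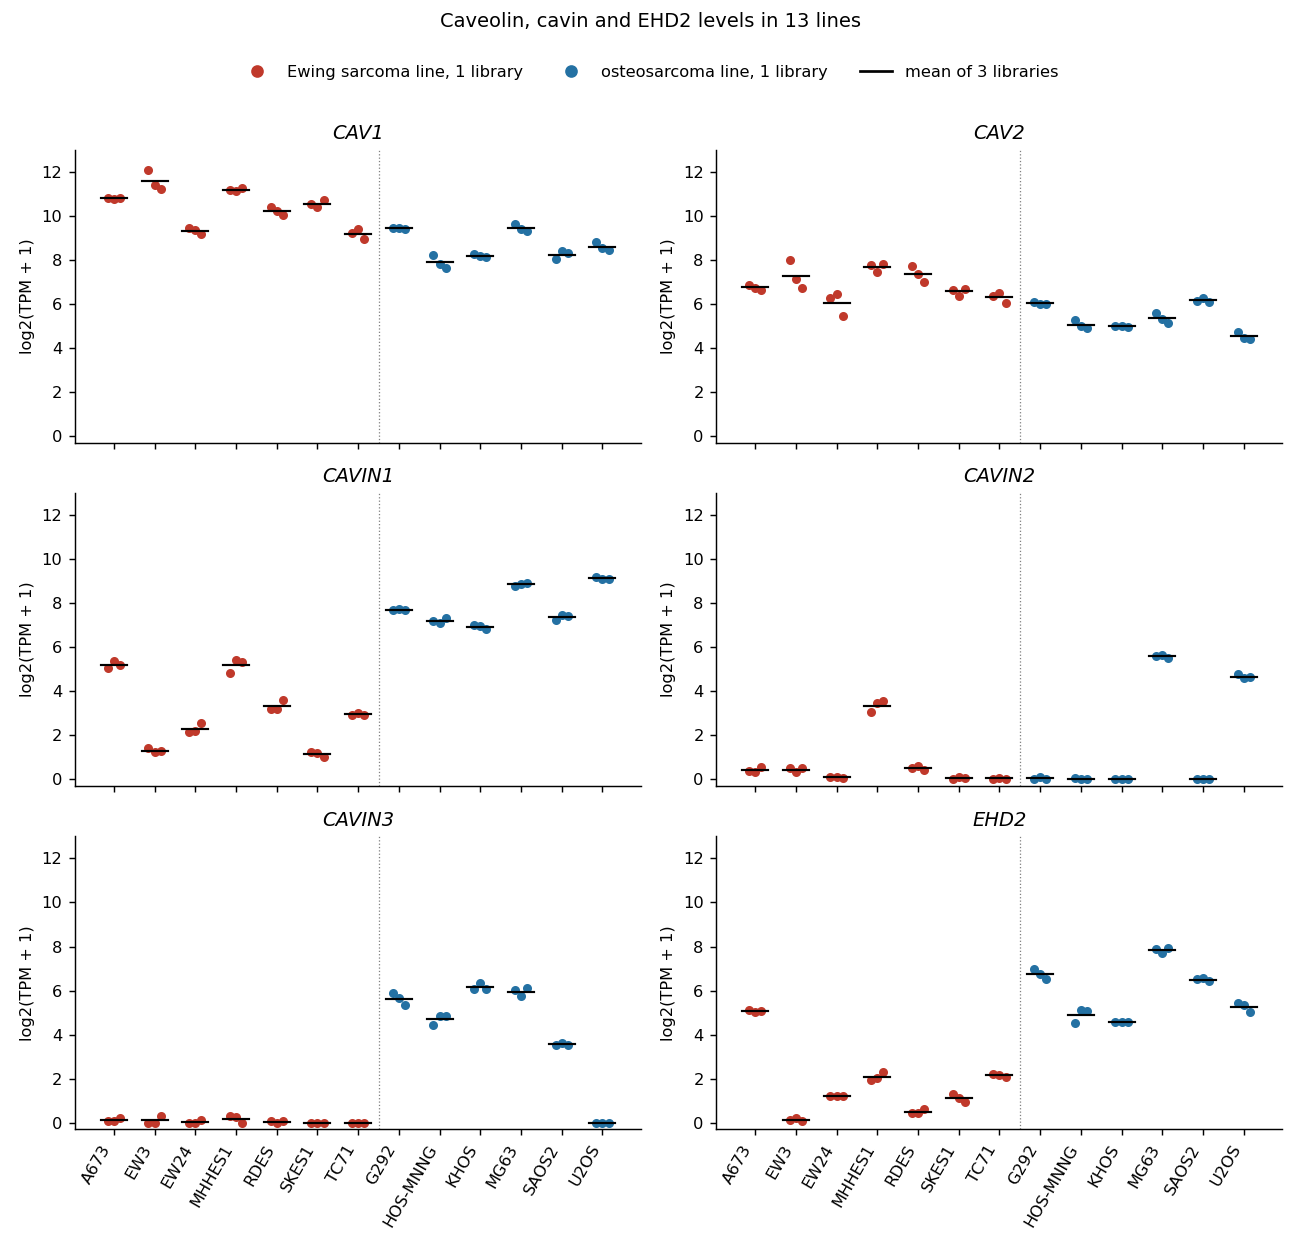
Levels of the 6 genes as log2(TPM + 1) in each of 3 libraries (points) and their mean (bars) for 7 Ewing sarcoma lines (red) and 6 osteosarcoma lines (blue). CAVIN1 does not overlap between the tumour types, and CAVIN2 is at 1 TPM or more only in MHHES1, MG63 and U2OS. CAVIN3 is at 0 in U2OS, and A673 is the Ewing sarcoma line with EHD2 at the level of osteosarcoma lines.

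The muscle relatives of these genes had different levels. CAV3, the muscle caveolin, was at or under 0.0807 TPM in 12 lines and at 1.80 ± 0.599 TPM (SD, n = 3) in SAOS2. CAVIN4, the muscle cavin, was between 1.88 TPM in EW24 and 9.27 TPM in RDES among the Ewing sarcoma lines and between 0.227 TPM in KHOS and 2.16 TPM in U2OS among the osteosarcoma lines. It was above CAVIN1 in SKES1 (6.51 against 1.24 TPM) and EW3 (2.15 against 1.49 TPM), and in RDES both stood near 9 TPM (9.27 and 9.16).

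Set beside each other within a library, caveolins and cavins were in a different balance in the tumour types. In the Ewing sarcoma lines there was 49.0 times (A673) to 2056 times (EW3) as much CAV1 as CAVIN1 on the TPM scale, with a median of 133 times. In the osteosarcoma lines the ratio was between 0.686 (U2OS) and 3.31 (G292), with a median of 1.71. U2OS was the 1 line with more CAVIN1 than CAV1. Summing CAV1 and CAV2 over the sum of the 3 cavins gave ratios from 51.3 to 1667 in Ewing sarcoma and from 0.695 to 2.93 in osteosarcoma. With CAVIN4 added to the cavins, these ratios were 48.1 to 786 and 0.692 to 2.91. That lowered the ratio by over 1.5 times in 3 Ewing sarcoma lines, from 1246 to 203 in SKES1, from 1667 to 786 in EW3 and from 144 to 72.6 in RDES. The mean log2 ratio of CAV1 to CAVIN1 was 7.68 ± 2.11 (SD, n = 7 lines) against 0.76 ± 0.77 (SD, n = 6 lines), while that of CAV1 to CAV2 was 3.57 ± 0.57 (SD, n = 7 lines) against 3.31 ± 0.78 (SD, n = 6 lines). The balance between the caveolins therefore differed by less than the spread between lines, and that between CAV1 and CAVIN1 by more.

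**Figure D2:**
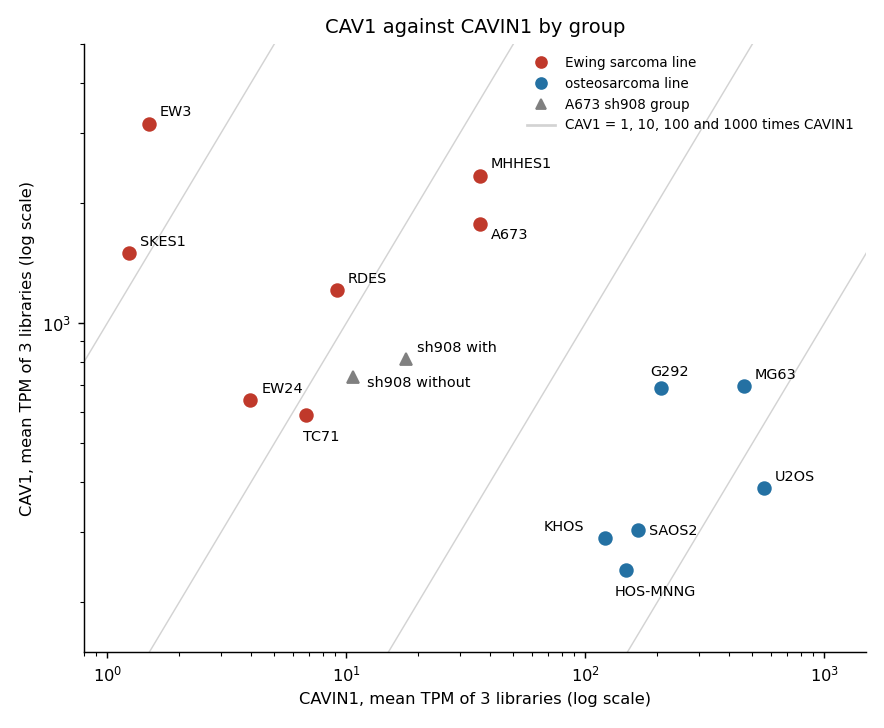
Mean CAV1 against mean CAVIN1 in TPM, both on log scales, for 7 Ewing sarcoma lines (red), 6 osteosarcoma lines (blue) and the 2 sh908 groups (grey triangles), with grey lines of constant CAV1 to CAVIN1 ratio, 10-fold apart. The osteosarcoma lines lie around the line of equal levels (ratios of 0.686 to 3.31), and the Ewing sarcoma lines lie at ratios of 49.0 to 2056.

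The tumour types were compared over lines, with the 3 libraries of a line summed to 1 sample and 7 lines set against 6. In edgeR's quasi-likelihood test with p-values adjusted over all genes (false discovery rate, FDR), CAV1 was 3.30-fold higher in the Ewing sarcoma lines (log2 fold change 1.72, SE 0.40, FDR 0.0130). CAV2 was 2.63-fold higher (log2 fold change 1.39, SE 0.30, FDR 0.00839). In the other direction, CAVIN1 was 21-fold lower (log2 fold change -4.39, SE 0.85, FDR 0.00494) and EHD2 13.6-fold lower (log2 fold change -3.77, SE 1.17, FDR 0.0470). CAVIN2 missed the threshold of 0.05, with a log2 fold change of -3.15 and a 95% interval of -7.12 to 0.82 (FDR 0.327). It was at -5.88 without MHHES1 (FDR 0.106) and at -1.67 without MG63 (FDR 0.622). Over 39 libraries with the line as a random effect in limma its direction reversed, to 0.13 (FDR 0.971). CAVIN3, present in 5 lines, was removed by the filter on low counts, which asks for counts in 6 lines; with no filter its log2 fold change was -9.67 (FDR 0.00208), where 10.5% of 37204 genes were called and 6.42% were called lower. Of the 22000 genes tested, 14.4% were called, 5.96% as higher and 8.4% as lower in Ewing sarcoma, and their median log2 fold change was -0.06.

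An exact 2-sided permutation test of log2(TPM + 1) over the line means gave p = 0.00583 for CAV1, p = 0.00175 for CAV2, p = 0.00233 for EHD2 and p = 0.00466 for CAVIN3. For CAVIN1 the exact test gave p = 0.000583, the smallest that 7 against 6 lines allow, and for CAVIN2 it gave p = 0.330. Without A673 the log2 fold change of EHD2 was -5.76 (FDR 0.00272), while it missed the threshold when any 1 of the other 12 lines was left out, with FDRs up to 0.0896. The calls of CAV1, CAV2 and CAVIN1 held with each line left out in turn.

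**Figure D3:**
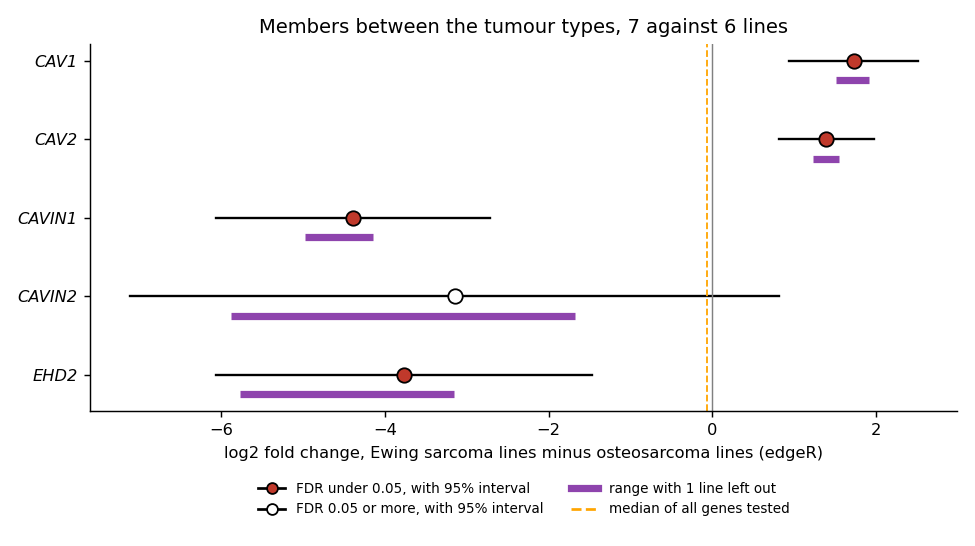
The log2 fold changes of 5 members between 7 Ewing sarcoma lines and 6 osteosarcoma lines (points, edgeR) with 95% intervals (black), the range with 1 line left out (purple) and the median of all genes tested (dashed). CAV1 and CAV2 lie above 0 and CAVIN1 and EHD2 below 0, and the interval of CAVIN2 spans 0.

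CAV1 has 4 transcripts in the tables, and 1 of them had the wider gap between the tumour types. That transcript, NM_001753, starts upstream and encodes the 178-residue protein (alpha-caveolin-1) with its start codon inside the window printed above, whose first base is 116525063 of chromosome 7. The other 3, NM_001172895 from the upstream start and NM_001172896 and NM_001172897 from the start 1326 bases downstream, encode the 147-residue protein (beta-caveolin-1), as matched to the GENCODE annotation. NM_001753 held 68.1% ± 11.8 (SD, n = 7 lines) of CAV1 TPM in the Ewing sarcoma lines and 52.5% ± 5.86 (SD, n = 6 lines) in the osteosarcoma lines. The share was highest in MHHES1 (82.8%), EW3 (79.3%) and A673 (75.1%), and lowest in MG63 (45.9%), U2OS (46.0%) and TC71 (49.0%), so the tumour types overlapped. In TPM, NM_001753 had a median over lines of 909 in Ewing sarcoma (289 to 2517) and 168 in osteosarcoma (148 to 380). The transcripts of the downstream start had a median of 309 (182 to 497) and 154 (75 to 336), a smaller gap. No test was run on transcripts, since the programme divides reads between 4 overlapping sequences and the error of that division is not in the tables.

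**Figure D4:**
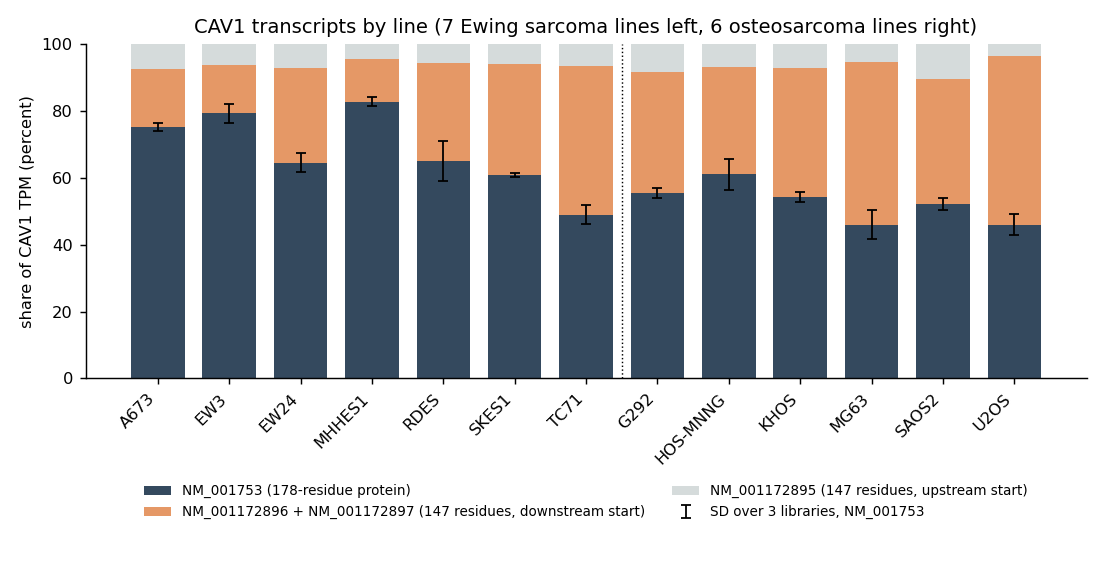
Share of CAV1 TPM held by its transcripts in 13 lines, as the mean of 3 libraries, with the SD of the NM_001753 share as error bars. The NM_001753 share runs from 49.0% (TC71) to 82.8% (MHHES1) in the 7 Ewing sarcoma lines and from 45.9% (MG63) to 61.1% (HOS-MNNG) in the 6 osteosarcoma lines.

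For CAV2, NM_001206747 and NM_001233 had the same estimated count, to 3 decimals, in 45 of 45 libraries, so they were not resolved from each other and were read as 1. NM_012232 was the main CAVIN1 transcript in every line, from 84.8% of CAVIN1 TPM in EW3 to 99.3% in MG63. Its second transcript, XM_005257242, held most in the lines with the least CAVIN1, with 15.2% ± 1.41 (SD, n = 3) in EW3 and 13.8% ± 4.63 (SD, n = 3) in SKES1.

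Over the 13 line means of log2(TPM + 1), CAV1 and CAV2 had a Pearson correlation of 0.841 (Spearman 0.797), and CAVIN1 and EHD2 one of 0.907 (Spearman 0.896). CAV1 and CAVIN1 had -0.614 (Spearman -0.489). These are descriptions over lines of 2 tumour types, and they differed within the types. Over the 7 Ewing sarcoma and the 6 osteosarcoma lines, CAV1 and CAV2 had 0.788 and 0.303, CAVIN1 and EHD2 had 0.727 and 0.450, and CAV1 and CAVIN1 had 0.111 and 0.571. Of 14581 genes ranked, those most like CAV1 were DLGAP1 (0.937), TMEM114 (0.929), ZNF565 (0.928), SDHC, a subunit of succinate dehydrogenase (0.926), and VPS26B, a retromer subunit (0.914), with CAV2 at rank 78. Those most like CAVIN1 were TNFRSF12A, the TWEAK receptor (0.949), SP140L (0.946), the polo-like kinase PLK2 (0.939), TGFB1I1, a focal adhesion protein also called Hic-5 (0.931), and the tetraspanin CD9 (0.931), with EHD2 at rank 31.

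Other genes known from caveolae were read from lists chosen by function. None of 15 tested partners (the dynamin DNM2, the PACSIN, EHD and other genes, 16 listed) was called between the tumour types by edgeR, with a median log2 fold change of -0.20. Of these 15, 7 had an unadjusted p under 0.05, as had 29.6% of all genes tested. DESeq2 called 6 of the 15, 2 as higher and 4 as lower in Ewing sarcoma, against 24.6% of all genes. Among 8 tested raft scaffold genes (9 listed), FLOT1, a flotillin of caveolin-free rafts, was lower in Ewing sarcoma (log2 fold change -1.26, FDR 0.00266; 76.1 ± 23.3 against 171 ± 45.3 TPM, SD over 7 and 6 lines). Of 18 receptors and channels known to sit in caveolae, 7 were called lower and 0 higher, with a median log2 fold change of -0.85, against 8.4% of all genes called lower and 5.96% called higher. DESeq2 called 7 of them lower and 2 higher. The largest falls were CD44, the hyaluronan receptor (-7.78, FDR 0.00741), PDGFRA, a growth factor receptor (-6.78, FDR 0.00592), and BDKRB2, the bradykinin receptor (-5.90, FDR 0.0203). Single lines moved these values by over 1.5 times in fold: CD44 was at -10.1 without A673 (FDR 0.00111) and at -6.87 without MG63 (FDR 0.0123), and PDGFRA at -7.68 without SKES1 (FDR 0.00586) and at -6.04 without MG63 (FDR 0.0105). BDKRB2 was at -4.29 without MG63 (FDR 0.0445), and it was not called over 39 libraries with the line as a random effect in limma (-4.19, FDR 0.0696) or with the replicate block added (-4.24, FDR 0.0530). Of 13 regulators of caveolin and cavin transcription, 2 were called, against 14.4% of all genes. TEAD2 was higher (2.0, FDR 0.0151; 127 ± 45.6 against 31.6 ± 23.5 TPM, SD over 7 and 6 lines) and WWTR1, the gene of TAZ, was lower (-2.18, FDR 0.0274; 19.4 ± 10.5 against 80.1 ± 52.6 TPM). WWTR1 was not called in 5 of the 13 fits that left out a line (FDR up to 0.0559).

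Induction of the KCNN1 hairpin was compared within sh908 cells, 3 libraries against 3. KCNN1, the target, was at 37.8, 35.3 and 18 TPM without doxycycline and at 10.2, 13.7 and 7.75 TPM with it, in the order of replicates 1, 2 and 3, and the groups did not overlap. Replicate 3 of both groups stood apart from the other 4 libraries on a first principal component that held 75.7% of the variance. Same-numbered libraries deviated together from their group means, most of all those of replicate 3, so the replicate numbers were also used as pairs.

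CAV1 was at 965, 809 and 430 TPM without doxycycline and at 1039, 908 and 489 TPM with it, in the same order. Each induced library was above the uninduced library of its number, and the groups overlapped. CAV2 went from 64.4, 61.5 and 46.8 TPM to 85.1, 76.6 and 61.1 TPM under doxycycline, again higher in 3 of 3 pairs. CAVIN1 was at 16.8, 10.4 and 4.80 TPM in uninduced cells and at 29, 20.7 and 3.58 TPM in induced cells, higher in 2 of 3 pairs, and its low values were the replicate 3 libraries. EHD2 had overlapping groups, with 39.5, 33.5 and 41.6 TPM before and 28.3, 40.6 and 36.1 TPM after induction. CAVIN2 was at most 0.149 TPM in any of the 6 libraries. CAVIN3 had no count in the 3 uninduced libraries and 6.25 estimated counts in the 3 induced ones.

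No member was called. The log2 fold changes in edgeR's quasi-likelihood test were 0.17 for CAV1 (95% interval -0.97 to 1.31), 0.39 for CAV2 (-0.35 to 1.14), 0.81 for CAVIN1 (-0.98 to 2.60) and -0.09 for EHD2 (-0.55 to 0.37), with an FDR of 1.0 for each. These intervals rest on the normal distribution and are narrower than the test implies. CAVIN2 and CAVIN3 were removed by the filter. Of 14252 genes, 0 (0.0%) were called by edgeR, 94 had an unadjusted p under 0.05, and DESeq2 called 2. With the replicate number as a block, 73 genes (0.512%) were called, KCNN1 among them (log2 fold change -1.46, FDR 0.00132), and no member was: the fold changes were 0.18 for CAV1 (FDR 0.444), 0.40 for CAV2 (FDR 0.0985), 0.56 for CAVIN1 (FDR 0.482) and -0.10 for EHD2 (FDR 0.750). With the block and without replicate 3, CAVIN1 was called (log2 fold change 0.91, FDR 0.00660), among 167 called genes (1.21%). Without replicate 3 and without the block it was not called (0.90, FDR 0.341). The exact permutation test cannot give a p below 0.1 with 3 against 3 libraries, and it gave 0.6 for CAV1, 0.3 for CAV2, 0.7 for CAVIN1 and 0.6 for EHD2.

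**Figure D5:**
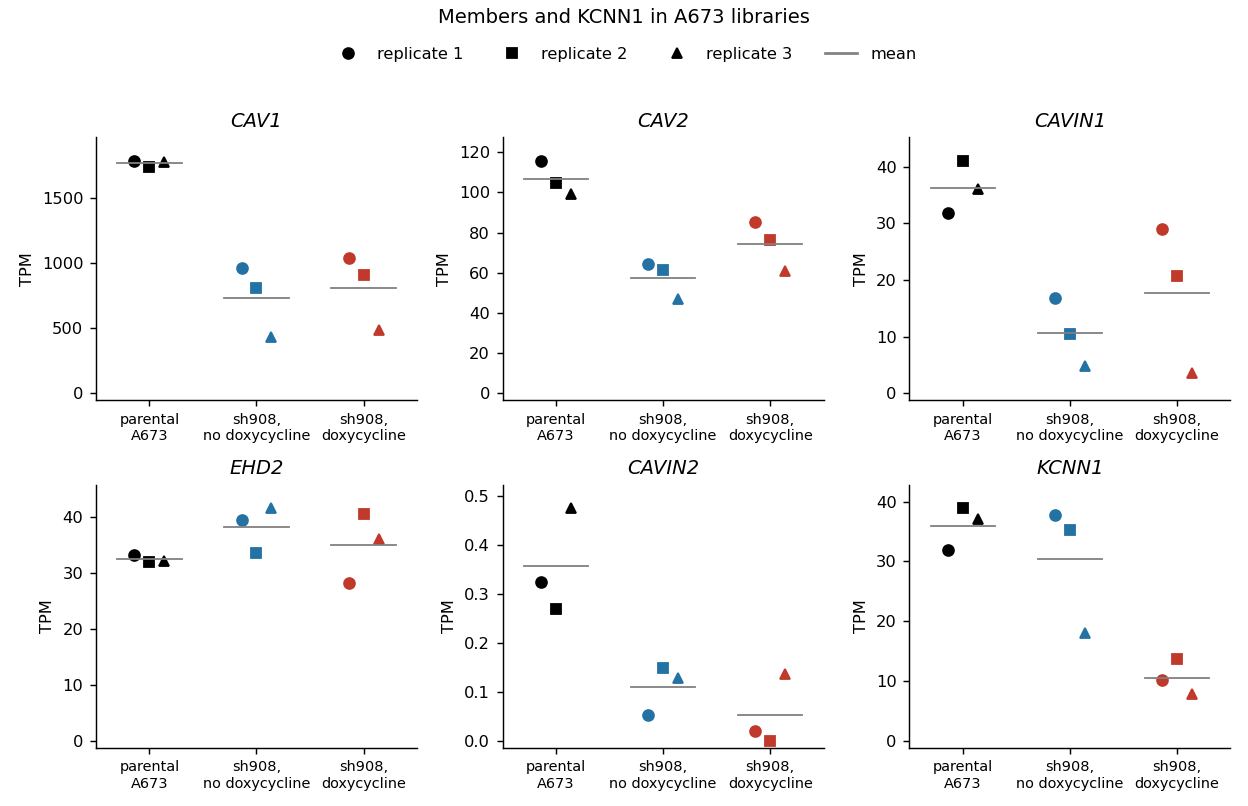
TPM of 5 members and KCNN1 in parental A673 and in sh908 cells without and with doxycycline, with 1 symbol per replicate number and grey bars for the mean of 3 libraries. On the TPM scale CAV1 and CAV2 are lower in every sh908 library than in every parental library (for CAV2 not so in TMM-scaled CPM), replicate 3 has the lowest CAV1, CAV2 and CAVIN1 of each sh908 group, and KCNN1 does not overlap between the induced and uninduced groups.

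Uninduced sh908 cells were also set against parental A673. CAV1 was at 1788, 1737 and 1780 TPM in parental A673, so each uninduced sh908 library was lower, and so it was for CAV2, at 116, 105 and 99.5 TPM in the parental libraries, and for CAVIN1, at 31.9, 41 and 36 TPM. CAVIN2 was low throughout, at 0.324, 0.270 and 0.475 TPM in the parental and 0.0524, 0.149 and 0.128 TPM in the uninduced libraries. In CPM scaled by edgeR's TMM, CAV2 overlapped, with 155 to 188 CPM in the parental libraries, 162, 157 and 77.3 CPM in the uninduced and 230, 191 and 107 CPM in the induced ones, while CAV1 and CAVIN1 kept every uninduced library below the parental ones. EHD2 was at 33.3, 32 and 32.2 TPM in the parental libraries, and each uninduced sh908 library was higher. The TPM scale and the scaling of edgeR differed here: over the 15778 genes tested the median difference was -0.32 in log2(TPM + 1) and 0.01 in the edgeR fit. In log2(TPM + 1), CAV1 differed by -1.35, CAV2 by -0.89, CAVIN1 by -1.81 and EHD2 by 0.22. Relative to the median of all genes these differences were -1.02, -0.56, -1.49 and 0.54. Without that shift removed, the exact permutation test gave each its smallest possible p of 0.1.

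In edgeR, EHD2 was called as higher in uninduced sh908 cells (log2 fold change 0.70, SE 0.16, FDR 0.0321). CAV1 (-0.73, FDR 0.277), CAV2 (-0.37, FDR 0.402), CAVIN1 (-1.19, FDR 0.168) and CAVIN2 (-1.24, FDR 0.153) missed the threshold, and CAVIN3 was removed by the filter. Of all genes tested, 15.1% were called, 8.71% as higher and 6.42% as lower. Without replicate 3 of the uninduced cells, CAV1 (-0.35, FDR 0.00157), CAVIN1 (-0.75, FDR 0.0200) and EHD2 (0.84, FDR 2.26e-06) were called, in a fit that called 62.3% of 16379 genes. EHD2 was not called without any other single library (FDR 0.0766 to 0.151). The carrier of the hairpin and the library set cannot be told apart in this comparison. Of the 6 endothelial markers, PLVAP was at 2.44 TPM in parental A673, 60.8 TPM in uninduced and 83.5 TPM in induced sh908 cells. PECAM1, CDH5, VWF and TEK were under 1 TPM in all 3 groups, and CLDN5 was at 0.509, 0.663 and 1.82 TPM, so PLVAP made up most of the summed 61.7 and 85.6 TPM of the sh908 groups. The part of PLVAP in the result was not tested.

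Among the listed genes, YAP1 (-1.19, FDR 0.0214) and TEAD1 (-1.04, FDR 0.0122) were lower in uninduced sh908 cells than in parental A673, and TEAD2 (0.76, FDR 0.0179), SREBF2 (0.67, FDR 0.0324) and MRTFA (0.60, FDR 0.0497) were higher, which made 5 of 13 regulators of transcription called in the edgeR test, against 15.1% of all genes. YAP1 is the co-activator that TEAD factors carry to DNA. Of the raft scaffold genes, FLOT2 (1.07, FDR 0.00728) and FLOT1 (0.63, FDR 0.0404) were higher and STOM, a stomatin (-1.42, FDR 0.0160), was lower. Of 15 tested caveolar receptors and channels, NOS3, the endothelial nitric oxide synthase (1.31, FDR 0.0407), was higher and ATP2B1, a plasma membrane calcium pump (-0.89, FDR 0.0118), was lower. None of 14 tested caveola partners was called by edgeR, where 3 had an unadjusted p under 0.05 (33.2% of all genes had), and DESeq2 called 1 as lower (26.4% of all genes were called by it). The calls of these 10 listed genes were lost in 7 to 9 of the 12 fits that left out a library or a replicate number.

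The CAV1 transcripts differed between these A673 sets as well. NM_001172895 held 7.46% ± 0.973 (SD, n = 3) of CAV1 TPM in parental A673. With the hairpin construct its share was 0.855% ± 0.0720 (SD, n = 3) before and 0.930% ± 0.269 (SD, n = 3) after doxycycline. The sh908 libraries lay between 0.646% and 1.18%, below the lowest library of any parental line, at 2.69% in U2OS. For NM_001753 the shares overlapped, with 75.1% ± 1.2 in the parental cells, 70.9% ± 7.4 without doxycycline and 75.3% ± 5.16 with it (SD, n = 3 each). The mean fragment length implied by the effective lengths was 141 to 170 bases in the sh908 libraries and 181 to 191 bases in parental A673. U2OS had 149 to 153 bases with NM_001172895 shares of 2.69% to 4.33%. MHHES1 had 139 to 171 bases with shares of 2.80% to 6.89%. The part of fragment length in the shares was not tested.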

How the data were processed

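RNA was sequenced in 45 polyadenylated RNA libraries of cell lines with the TruSeq Stranded mRNA kit, per the labels. Reads were processed with fastp 0.19.5 and kallisto 0.46.2, per the submitters' processing notes. The authors deposited 1 table per library with, per the file headers, the expected count (the estimated number of reads), TPM and other values (transcript length and effective length, in bases) for 177816 transcripts. Of these, 169966 (95.6%) were joined to genes through RefSeq annotation of GRCh38.p14, by accession without version. Those left out held 0.915% to 1.60% of a library's count. Library totals were 15974173 to 51413254 estimated counts. Counts and TPM were summed per gene, and counts were rounded.

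Line sums (7 against 6) and the sh908 libraries (3 against 3) were compared with edgeR 4.0.16 (filterByExpr, TMM, robust quasi-likelihood, R 4.3.3), with p-values adjusted over all genes (Benjamini-Hochberg, FDR under 0.05). Single genes were also tested by exact 2-sided permutation of log2(TPM + 1). Intervals are the estimate and its SE at 95% by the normal distribution. The quasi-likelihood test allows for the few samples, so the intervals are narrower than its p-values imply. For CAVIN1 between uninduced sh908 cells and parental A673 the interval was -2.23 to -0.16. The unadjusted p of edgeR's quasi-likelihood test was 0.0602 there. DESeq2 1.42.0 and limma 3.58.1 served alternatives. The scripts were tested on simulated data. With a simulated log2 change of 2 the tumour type test called 37% of 100 changed genes, and with 4 it called 100%. The doxycycline test called 59% of 100 changed genes at 1 and 100% at 2. The simulation used a set spread between samples and no replicate that stood apart.

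Same-numbered sh908 libraries deviated together (correlations 0.683, 0.582 and 0.881 of deviations from group means), so their numbers were taken as pairs. Libraries with different numbers had correlations of -0.778 to 0.608, the highest of them above that of the replicate 2 pair. The labels do not say what the numbers stand for.

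Transcript shares needed 30 counts of the gene. Transcript starts and protein lengths came from GENCODE version 29. The gene list named the members, KCNN1, at most 3 called genes per list and direction, and the 5 genes most like CAV1 and CAVIN1 among those reaching 5 TPM in a line. The members, lists and tests were chosen with earlier results of these data known.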

Additional observations from a re-analysis of the deposited data

Results flagged for a closer look

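Of 18 sets of line values examined (6 genes and 3 ratios in each tumour type), 2 held a line far from the others, where chance gives about 1 in 20. EHD2 in A673, at 32.5 TPM, was separated from the next Ewing sarcoma line, at 3.48 TPM, by 0.590 of the whole range of log2(TPM + 1) over 7 lines, above the limit of 0.568. CAVIN2 in MHHES1, at 9.34 TPM, was separated from the next Ewing sarcoma line, at 0.436 TPM, by 0.857 of that range.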

How the results depend on the processing

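Between the tumour types CAV1, CAV2 and CAVIN1 kept their direction and call under every alternative run. Over 39 libraries with the line as a random effect in limma, CAVIN1 was at -5.39 and EHD2 at -5.55, both called. EHD2 missed the threshold with no filter (-3.72, FDR 0.0532), with KHOS and HOS-MNNG summed (-3.97, FDR 0.0535) and without any 1 line except A673, with -5.76 to -3.15 over all left-out lines and replicates. CAVIN2 reversed to 0.13 with 39 libraries and the line as a random effect in limma, and to 0.29 with the replicate block added, without a call (FDR 0.971 and 0.935); the cause was not tested. DESeq2 called 5404 genes in place of 3159.

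For doxycycline, the number of called genes was 73 with the replicate block, 2 with DESeq2, 12 with all 45 libraries in 1 fit and 0 to 167 over fits without a library or replicate number: with the block 10, 7 and 167 without replicates 1, 2 and 3, and 28 without the block and replicate 3. Over those fits CAV1 ranged from -0.20 to 0.52, CAVIN1 from 0.18 to 1.39 and EHD2 from -0.31 to 0.09, with CAV1 below 0 in 2 fits without the block, each of which left out 1 library of a pair (-0.20 without uninduced replicate 3 and -0.16 without induced replicate 1), and at 0.15 to 0.22 in the 4 fits with the block. EHD2 was at 0.0515 without replicate 1 under the block, at 0.0862 without replicate 1 in both groups, at 0.0496 without uninduced replicate 1 and at 0.0451 without induced replicate 3. The replicate block and the left-out replicate 3 together gave CAVIN1 at 0.91. With all 3 pairs, the block changed no member's call, and KCNN1 was called with it (FDR 0.00132).

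For uninduced sh908 against parental A673, the number of called genes was 319 with the replicate block, 4169 with DESeq2, 7558 with all 45 libraries and 0 to 10202 over the fits without a library or replicate number; it was 10202 without uninduced replicate 3, 8986 without replicate 3 in both groups, and with the replicate block 205, 345 and 8250 without replicates 1, 2 and 3. EHD2 missed the threshold with the block (0.69, FDR 0.0784), where the replicate numbers did not pair these samples (correlations of 0.0455, 0.0866 and 0.250), and with no filter (0.69, FDR 0.0567), and ranged from 0.58 to 0.84 over the left-out libraries. With that block 0 of 13 listed regulators, 0 of 15 receptors and channels and 1 of 8 raft genes were called, in a fit that called 2.02% of all genes. CAVIN1 (-1.18, FDR 0.0387) and CAVIN2 (-1.25, FDR 0.0493) were called with all 45 libraries in 1 fit. Beside the fit without uninduced replicate 3, CAV1 was called without replicate 3 in both groups (FDR 0.00810) and with the block added (FDR 0.00793), and CAVIN1 without replicate 3 in both groups (FDR 0.0388) and with the block and without replicate 1 (-2.07, FDR 0.0296). CAV1 ranged from -1.23 to -0.35 (-0.36 with the block and without replicate 3, -1.03 without uninduced replicate 1) and CAVIN1 from -2.07 to -0.75 (-0.77 without replicate 3 in both groups, -1.75 without uninduced replicate 1). EHD2 was at 0.59 and 0.72 without replicates 1 and 2 in both groups, and at 0.70 with the block and without replicate 2. The fits without a replicate number in both groups, the ratios and permutation tests without a line and the ratio with CAVIN4 were chosen after seeing the data. The difference between the tumour types in the log2 ratio of CAV1 to CAVIN1 stayed within 6.36 to 7.26 without any 1 line. Depth limits CAVIN3 in Ewing sarcoma and in U2OS and CAVIN2 in most lines, where counts were low or none were seen. Transcript shares rest on how the programme divided reads.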
